A study of Mus musculus with 8 samples.

Results

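Rad21 binding was compared between the 2 orientations of the engineered Igh allele in lines that kept only parts of the switch regions, the genotypes PS_Ca and PS_Ia, with 2 libraries each. The 4 deposited peak lists were merged where peaks overlapped by at least 1 bp, which gave 55770 regions. Leaving out chromosome 12 from 114.5 Mb on, which holds most of Igh, and chromosomes X, Y and M left 54160 regions. All 8 lists of the series merge into 64772 regions. A region was held by a library if that library had at least 1 peak in it.

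CH12F3 cells are a murine B-cell lymphoma line that can be made to switch its antibodies from the IgM to the IgA class in culture. All cells lacked AID (AID-/-), the deaminase that starts class switching, and all had received anti-CD40, IL4 and TGF-β for 3 days before cross-linking. Both PS genotypes carry a deletion that joins what is left of Sγ3 to what is left of Sα, the switch regions of γ3 and of α, so that each is partial. PS_Ca was made in cells that lack the stretch from VH to the 3'BCEs on the non-coding IgH allele and has Cα in its name. PS_Ia was made in αInv cells and has Iα in its name. The labels do not say that αInv cells carry the same deletion on the non-coding allele, whether a genotype is 1 clone or several, or that its 2 libraries came from separate cultures. The p-values therefore measure the spread between these samples, which may be technical. FS_Ca and FS_Ia, with 2 libraries each, retain both Sγ3 and Sα at full length. FS_Ca has a deletion from Cγ3 to Iα in the same kind of parent cells as PS_Ca, and FS_Ia one from Cγ3 to Cα in αInv cells. The series asks how the layout of chromatin bears on the orientation in which broken switch regions are joined.

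Rad21 is the kleisin subunit of cohesin, the ring that closes around DNA and extrudes it into loops. Cohesin collects where extrusion stalls, above all at sites bound by CTCF, so that a Rad21 peak usually marks a loop anchor or an insulator. At Igh, loop extrusion brings donor and acceptor switch regions together, and the CTCF-binding elements in the 3' flank of the locus form a strong anchor. No genome or gene annotation of the mm9 build was at hand, so regions are given by mm9 position and no gene or sequence is assigned to them.

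Each peak carries a fold enrichment, the height of its summit over the expected background of that library, as the authors' peak caller wrote it. The folds rise in whole steps, which returns the summit height in fragments. The strength of a region in a library is the log2 of its highest fold there minus the library's median over the regions held by all 4 libraries, so that 0 is a region of middling strength. Differences are PS_Ia minus PS_Ca on this log2 scale.

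The 4 lists were of unequal length. In the chromosomes compared, PS_Ca replicates 1 and 2 had 30124 and 10361 peaks, and PS_Ia replicates 1 and 2 had 20089 and 46858. Read totals were not given in the sources used here. In the regions held by all 4, the median summit was 20 fragments in PS_Ca replicate 1, 10 in PS_Ca replicate 2, 15 in PS_Ia replicate 1 and 19 in PS_Ia replicate 2. The lowest summit called was 5 fragments in each of the 4 lists. PS_Ca replicate 2 was thus the shallowest in signal, and a summit of 10 fragments carries a large counting error.

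Most regions belonged to 1 library. Of the 54160 regions, 31234 (57.7%) were held by 1 library, 7829 (14.5%) by 2, 6777 (12.5%) by 3 and 8320 (15.4%) by all 4. PS_Ia replicate 2 alone accounted for 22788 regions, 51.3% of those it held. PS_Ca replicate 2 had only 347 regions of its own, 3.52% of those it held, and 84.5% of its regions were held by all 4. Besides these and the regions held by all 4, the most frequent patterns were PS_Ca replicate 1 alone (6095 regions) and the 3 libraries other than PS_Ca replicate 2 (5945 regions).

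**Figure D1:**
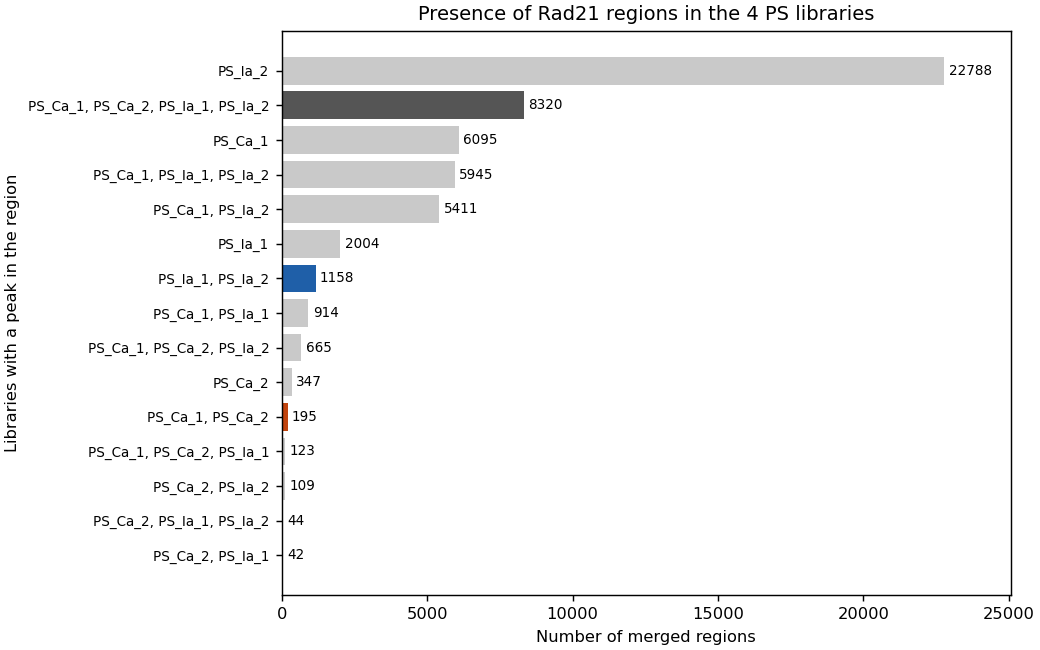
Number of merged regions (horizontal axis) for each set of PS libraries that held a peak (vertical axis). The dark bar is the 8320 regions held by all 4 libraries, the blue bar the 1158 regions held by both PS_Ia and neither PS_Ca library, and the red bar the 195 regions of the opposite pattern. The longest bar, at 22788, is PS_Ia replicate 2 alone.

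Regions held by both PS_Ca libraries were mostly held by both PS_Ia libraries. Of the 9303 regions in both PS_Ca libraries, 8320 (89.4%) were in both PS_Ia libraries too. Of the 15467 regions in both PS_Ia libraries the same 8320 made up 53.8%. Most of the remainder, 5945 regions (38.4%), were found in PS_Ca replicate 1 and missed in PS_Ca replicate 2 only. The opposite miss, in PS_Ca replicate 1 only, occurred at 44 regions (0.284%).

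No single region passed the main test for a difference in strength between the orientations, which used no replicate block. Of the 8320 regions held by all 4 libraries, 0 (0%) passed an adjusted p of 0.05 (limma, Benjamini-Hochberg over all 8320), and the lowest adjusted p was 0.0915. At an unadjusted p under 0.05 there were 260 regions (3.12%). The count was also 0 in limma without a strength trend. It was 1 at a −log10 q of at least 5 and 1 with summits of at least 10 fragments in all 4 libraries. With the replicate number as a block it was 4, but the labels do not say that the numbers pair libraries. The difference had a median of -0.04, quartiles of -0.25 and 0.18, and an SD of 0.33 over regions. The counting error expected of such a difference from the summit heights alone had a median of 0.37, and the median standard error in the limma fit was 0.36. The spread over all regions was thus no wider than counting error. By strength, the SD was 0.32 against a counting error of 0.44 in the weakest of 5 equal classes and 0.32 against 0.29 in the strongest, so that the spread did not narrow with the counting error. Across regions the difference in the replicate 1 libraries and that in the replicate 2 libraries had a Pearson r of -0.08, given as a description because regions share libraries and depth.

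Regions whose 2 PS_Ia values both lay above both PS_Ca values numbered 1003 (12.1%), and the opposite was found at 1379 (16.6%). Past 2-fold there were 36 regions, of which 6 were higher in PS_Ia and 30 higher in PS_Ca. All 6 that were higher in PS_Ia lay on chromosome 16, which held 288 of the 8320 regions tested. Of the 30 that were higher in PS_Ca, 7 lay on chromosome 5 and 4 on chromosome 15, which held 485 and 373. All 7 on chromosome 5 lay between 14 and 16 Mb, a stretch that held 25.

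Chromosome 16 stood apart as a whole. Its 288 regions held by all 4 libraries had a median strength of -0.07 in PS_Ca replicate 1, 0.00 in PS_Ca replicate 2, 0.32 in PS_Ia replicate 1 and 0.32 in PS_Ia replicate 2. Both PS_Ia libraries were above both PS_Ca libraries. The median difference was 0.37, or 1.29-fold, with quartiles of 0.12 and 0.59. In fragments, the median summit on chromosome 16 was 19 in PS_Ia replicate 1 and 24 in PS_Ia replicate 2, against 15 and 19 over all chromosomes. In PS_Ca it was 19 and 10, against 20 and 10. The medians of the other 18 chromosomes were between -0.12 and 0.16. With 2 libraries against 2 no exact two-sided permutation p can fall below 0.33, so the chromosome is described without a test.

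The shift held in each pair of libraries of the same number. On chromosome 16 the median of PS_Ia minus PS_Ca was 0.48 between the replicate 1 libraries and 0.30 between the replicate 2 libraries. The other chromosomes ran from -0.16 to 0.13 in the former and from -0.22 to 0.14 in the latter. The peak names of the replicate 1 lists share a prefix, as do those of the replicate 2 lists, so these are also values within a naming set. The FS lists all share a different prefix, so that comparisons of PS with FS libraries run across naming sets. What the prefixes stand for is not given. Of the 288 regions, 243 (84.4%) were higher in PS_Ia on average, against 36.1% to 67.9% on the other chromosomes. At 125 regions (43.4%) both PS_Ia values lay above both PS_Ca values, against 12.1% of all regions. The opposite was found at 7 (2.43%), against 16.6%.

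**Figure D2:**
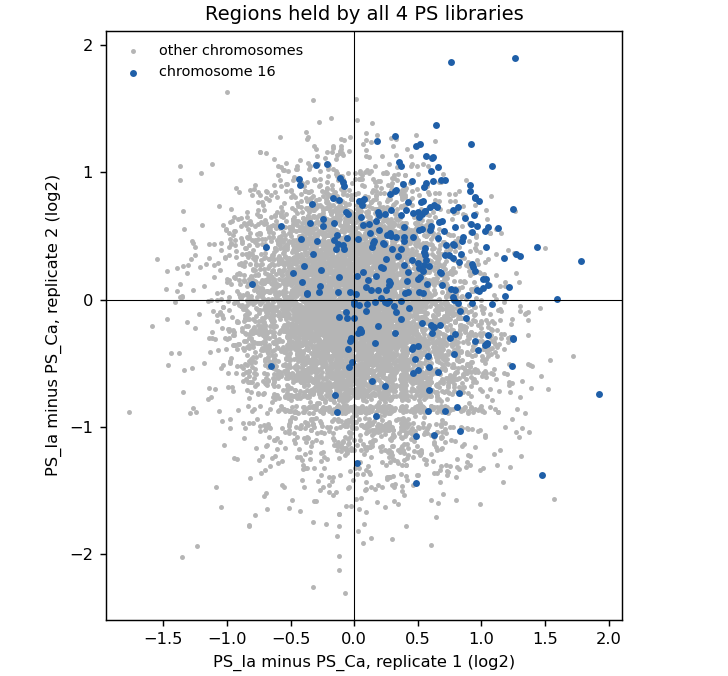
Difference in strength, PS_Ia minus PS_Ca on the log2 scale, between the replicate 1 libraries (horizontal axis) and the replicate 2 libraries (vertical axis) for the 8320 regions held by all 4 libraries. Each point is a region, moved by a small random amount so that equal values do not cover each other. Regions of chromosome 16 (blue) gather in the upper right, with medians of 0.48 and 0.30, while the other chromosomes (grey) centre near 0.

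The higher strength was found in each part of chromosome 16 with enough regions. Of 228 windows of 10 Mb with at least 10 regions, 7 were on chromosome 16, and all 7 had a median difference above 0, from 0.10 to 0.44. The windows between 60 and 90 Mb held fewer than 10 regions each and were not assessed. In 6 of the 7 the difference was above 0 within both numbers, and the window from 40 to 50 Mb had -0.28 between the replicate 2 libraries. The choice of window size was made after seeing the data. No window of another chromosome was past 0.25 in the PS_Ia direction with the same sign in both numbers. By strength, the median difference of chromosome 16 was 0.21 and 0.23 in the weakest and the next weakest of 5 equal classes and 0.40, 0.42 and 0.39 in the stronger ones.

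The FS libraries, in which both switch regions are full length, placed PS_Ca apart from the others on chromosome 16. These values are over the 259 chromosome 16 regions held by all 8 libraries, so that a peak in each FS list was required, with each library centred on its median over all 6691 such regions, the median strength was -0.14 and -0.13 in PS_Ca replicates 1 and 2. It was 0.30 and 0.24 in PS_Ia, 0.30 and 0.28 in FS_Ca, and 0.22 and 0.28 in FS_Ia. Both PS_Ca libraries were below all 6 others. The difference between Ia and Ca was 0.37 with partial and -0.06 with full-length switch regions. The FS differences of all 19 chromosomes were between -0.12 and 0.07. Peak numbers showed the same order: chromosome 16 held 3.19% and 3.06% of the peaks of PS_Ca replicates 1 and 2, and 4.77% to 5.75% in each of the other 6 lists. FS_Ca was made in the same kind of parent cells as PS_Ca. Whether the gap goes with the PS_Ca allele or with the cells that carry it cannot be told apart.

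**Figure D3:**
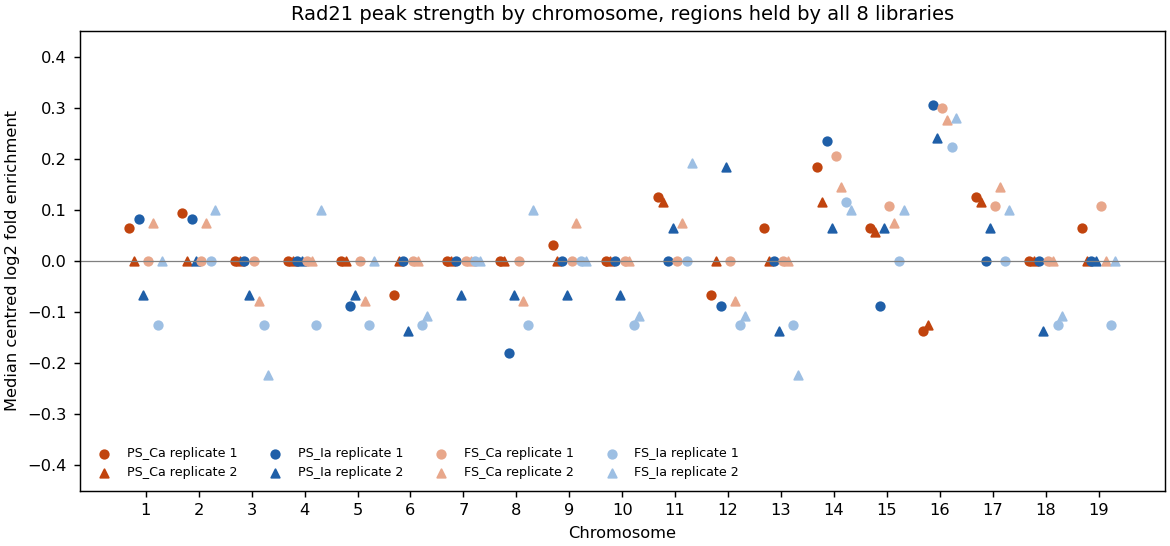
Median centred log2 fold enrichment of Rad21 peaks on each numbered chromosome (horizontal axis) in the 8 libraries, over the 6691 regions held by all 8. Circles are replicate 1 and triangles replicate 2. On chromosome 16 both PS_Ca libraries (dark red) lie at -0.14 and -0.13, below the 6 other libraries at 0.22 to 0.30.

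Chromosome 12 before Igh had the next highest median, 0.16 over 333 regions, but 1 library carried most of it. The median strength there was -0.14 and 0.00 in PS_Ca, -0.09 in PS_Ia replicate 1 and 0.20 in PS_Ia replicate 2. The groups overlapped. Over the regions of all 8 libraries, PS_Ia replicate 2 was at 0.18 and the other 7 were between -0.13 and 0.00.

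The start of chromosome 15 went the other way. In its first 40 Mb, a stretch chosen after the values were seen, the 72 regions held by all 4 had a median strength of 0.13 and 0.24 in PS_Ca replicates 1 and 2 and of -0.19 and -0.15 in PS_Ia replicates 1 and 2. Both PS_Ia libraries were lower. The median difference was -0.41, with -0.36 between the replicate 1 and -0.30 between the replicate 2 libraries. PS_Ia was the lower at 57 of the 72 regions. At 43 of the 72 both PS_Ca values were above both PS_Ia values, against 1379 of all 8320 regions (16.6%). Without PS_Ia replicate 1 the median difference was -0.29. Over the 59 of these regions held by all 8 libraries, PS_Ia was at -0.28 and -0.21, PS_Ca at 0.18 and 0.12, FS_Ca at 0.21 and 0.07 and FS_Ia at 0.12 and 0.00. The PS_Ia libraries were the 2 lowest of the 8. The rest of chromosome 15, 301 regions, had a median difference of -0.05, and its windows of 10 Mb ran from -0.26 to 0.20. The lowest, 37 regions after 100 Mb, had -0.61 between the replicate 1 and 0.14 between the replicate 2 libraries.

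The regions with the largest differences followed these chromosomes. Of the 10 largest in the PS_Ia direction without overlap, 8 were on chromosome 16, which held 288 of the 8320 regions tested. The first was at chromosome 16, 19145922 to 19148403, with summits of 25 and 7 fragments in PS_Ca replicates 1 and 2 and 47 and 53 in PS_Ia. Both PS_Ia libraries were clearly the higher, although the PS_Ca libraries differed from each other. The difference was 1.58 with a standard error of 0.33 (limma, adjusted p = 0.0915; adjusted p from 0.000784 to 1 over the alternatives). On the scale of the 8 libraries it had values of 0.24 and -0.58 in PS_Ca, 1.5 and 1.30 in PS_Ia, 0.30 and 0.84 in FS_Ca and 0.32 and 0.19 in FS_Ia, so that here PS_Ia was the genotype above the rest. The second, at chromosome 16, 4314003 to 4317169, had summits of 25 and 8 in PS_Ca and 33 and 58 in PS_Ia. Its difference was 1.31 (limma, adjusted p = 0.566; 0.0348 to 1 over the alternatives). On the scale of the 8 libraries PS_Ca was at 0.24 and -0.42, and the 6 others were between 1.0 and 1.5, so that here PS_Ca was the genotype below the rest.

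The next 4 of these were on chromosome 16 as well. They lay at 30599268 to 30603887, 10846007 to 10847613, 36709417 to 36712309 and 33949760 to 33952080, with differences of 1.02 to 1.08 and an adjusted p of 0.999 each (limma). Another 2 on chromosome 16, at 27138334 to 27140810 and 96566223 to 96567650, had differences of 0.98 and 0.94 (limma, adjusted p = 0.999). The 2 that lay elsewhere were at chromosome 11, 82632493 to 82633396, and chromosome 2, 160709876 to 160713882. The former had summits of 11 and 7 fragments in PS_Ca and 21 and 23 in PS_Ia. The latter had 16 and 8 in PS_Ca and 26 and 28 in PS_Ia and a difference of 0.94. Without 1 library that difference was -0.038 to 0.87 on merging again, so that it was not stable. With the region bounds of all 4 lists kept it was 0.83 to 1.05. Neither region passed (limma, adjusted p = 0.999 for both).

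In the PS_Ca direction the largest difference was at chromosome 15, 28110841 to 28112650, inside the stretch described above. The summits were 36 and 32 fragments in PS_Ca and 10 and 14 in PS_Ia, and the groups were far from overlapping. The difference was -1.68 with a standard error of 0.34 (limma, adjusted p = 0.0915; 0.000784 to 1 over the alternatives). The FS libraries lay between them, with summits of 26 and 18 in FS_Ca and 11 and 16 in FS_Ia. On the scale of the 8 libraries PS_Ca was at 0.75 and 1.46, FS_Ca at 1.05 and 0.00, FS_Ia at 0.00 and 0.28, and PS_Ia at -0.63 and -0.55. Another region of chromosome 15, at 88365702 to 88369261, had summits of 35 and 23 in PS_Ca and 12 and 15 in PS_Ia and a difference of -1.26 (limma, adjusted p = 0.788).

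The remaining regions of that group were often in one place on chromosome 5. Of the 10, 4 lay between 14905336 and 15200097. The first of them, at 15024151 to 15025423, had summits of 21 and 18 fragments in PS_Ca and 6 and 8 in PS_Ia, and a difference of -1.60 (limma, adjusted p = 0.522). The other 3 had differences of -1.30, -1.25 and -1.19 (limma, adjusted p = 0.999 for each). The last 4 each lay on a different chromosome. Chromosome 2 had one at 39249868 to 39250970 (18 and 14 fragments in PS_Ca, 7 and 7 in PS_Ia) and chromosome 7 one at 67004441 to 67004942 (23 and 24 against 8 and 14). Chromosome 14 had one at 24347697 to 24350292 (22 and 18 against 9 and 9) and chromosome 4 one at 61472059 to 61472933 (20 and 11 against 9 and 6). Their differences were between -1.16 and -1.31 (limma, adjusted p = 0.999 for each). The chromosome 7 region was not isolated. From 67 to 68 Mb, PS_Ca replicates 1 and 2 held 13 and 20 of 23 regions, and PS_Ia replicates 1 and 2 held 3 and 5.

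**Figure D4:**
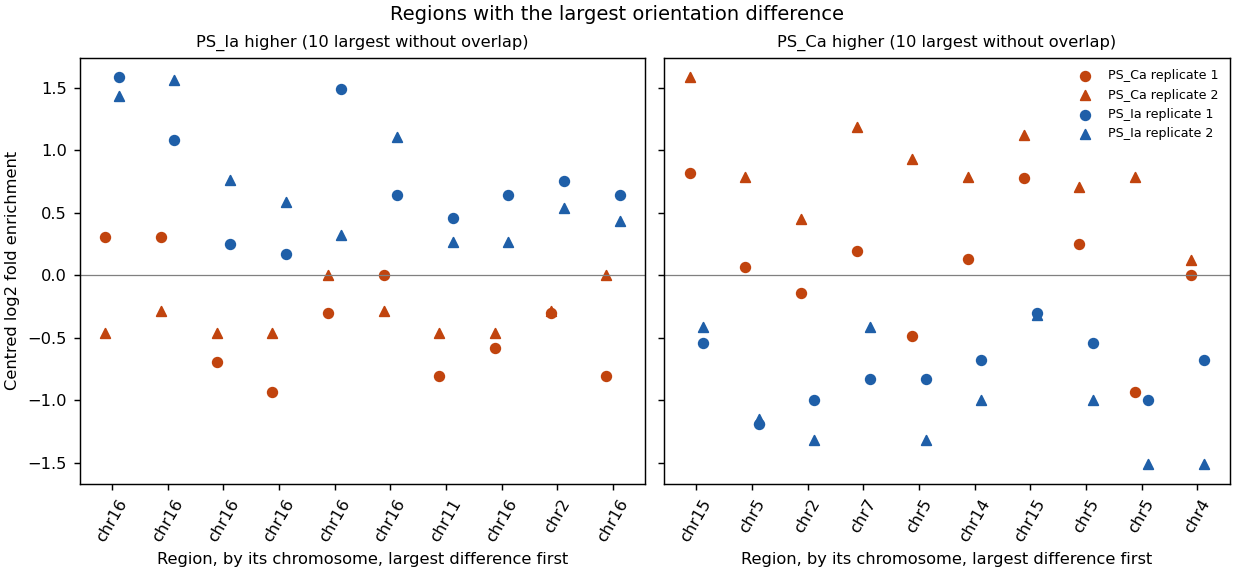
Centred log2 fold enrichment in the 4 PS libraries for the 10 regions with the largest difference in each direction among those whose groups do not overlap. Regions are given by chromosome, the largest difference first, circles are replicate 1 and triangles replicate 2. Of the regions higher in PS_Ia, 8 of 10 are on chromosome 16, and of those higher in PS_Ca, 4 are on chromosome 5 and 2 on chromosome 15. Chromosomes 16, 5 and 15 held 288, 485 and 373 of the 8320 regions tested. No region passed the main test, which used no replicate block.

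The segment of chromosome 5 from 14 to 16 Mb, chosen after the values were seen, had more peaks in both PS_Ca libraries, and stronger ones mainly in PS_Ca replicate 2. Of 159 regions there, PS_Ca replicates 1 and 2 held 96 and 150, and PS_Ia replicates 1 and 2 held 42 and 46, although the list of PS_Ca replicate 2 was the shortest. It held 1.62% of the peaks of PS_Ca replicate 2, 0.352% in PS_Ca replicate 1, 0.249% and 0.105% in PS_Ia replicates 1 and 2, and 0.170% to 0.669% in the FS libraries, the highest being FS_Ca replicate 1. The 25 regions held by all 4 had median strengths of -0.30 and 0.71 in PS_Ca and -0.54 and -1.0 in PS_Ia. All 25 were lower in PS_Ia on average, with a median difference of -0.77. That difference was -0.07 between the replicate 1 libraries and -1.60 between the replicate 2 libraries.

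The regions of one orientation were few and weak. Both PS_Ca and neither PS_Ia library held 195 regions (0.36%), and both PS_Ia and neither PS_Ca library held 1158 (2.14%). The imbalance was small in lists cut to the 11288 strongest peaks each, where the counts were 383 and 417. It remained at a −log10 q of at least 5, where they were 171 and 463. Leaving out 1 library moved the counts to between 322 and 6302 (PS_Ca-only) and between 1201 and 24311 (PS_Ia-only). The highest were without PS_Ca replicate 2 and without PS_Ia replicate 1. In PS_Ca-only regions the median summit was 9 and 8 fragments in replicates 1 and 2, and in PS_Ia-only regions 8 and 8. The lowest called summit was 5. Over all peaks of a list the median summit was 9 and 10 in PS_Ca replicates 1 and 2. It was 10 and 8 in PS_Ia replicates 1 and 2, so that these heights were close to those of a typical peak. The lower of the 2 summits was at most 7 fragments at 50.8% of PS_Ca-only and 64.3% of PS_Ia-only regions. Both summits reached 10 fragments at 32 PS_Ca-only (16.4%) and 81 PS_Ia-only regions (7.0%). Absence from a list means only that no peak passed the caller's threshold, and Rad21 may still have been bound.

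PS_Ia-only regions were concentrated on chromosome 16. It held 172 of the 1158 (14.9%), against 5.31% of all regions, and 4 of the 195 PS_Ca-only regions (2.05%). Per 1000 regions, 59.8 were PS_Ia-only on chromosome 16 and 13.7 to 26.6 on the other chromosomes. In lists of equal size chromosome 16 still held 50 of 417 (12%) and 1 PS_Ca-only region. At a −log10 q of at least 5 it held 65 of 463 (14%). The share was 6.73% without PS_Ca replicate 1 and 7.85% without PS_Ia replicate 1. Without chromosome 16 there were 191 PS_Ca-only (0.372%) and 986 PS_Ia-only regions (1.92%), so that the balance between the directions rested on the other chromosomes too. Regions held by all 4 were scarcer on chromosome 16, at 10.0% of its regions against 15.7% elsewhere.

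**Figure D5:**
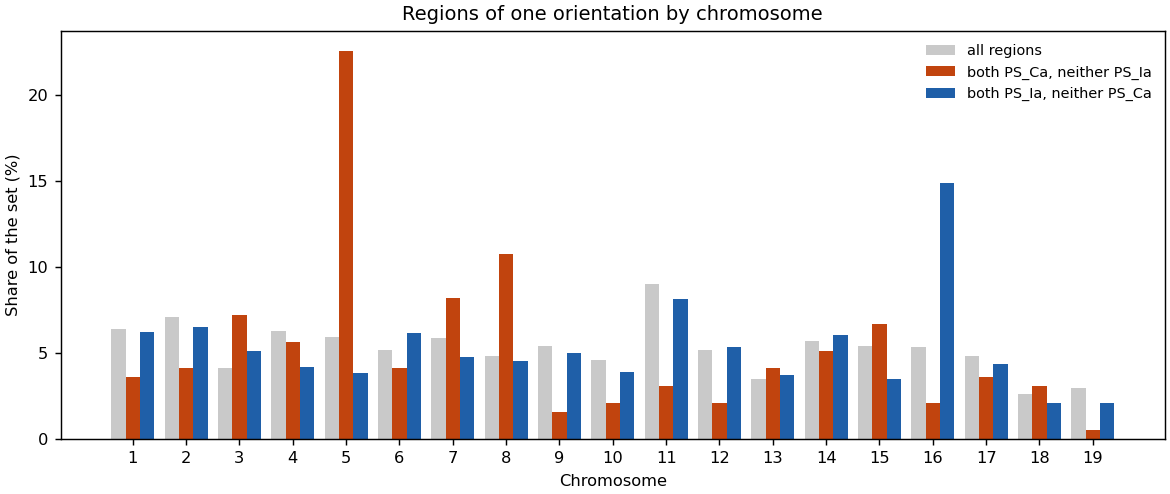
Share of all 54160 regions (grey), of the 195 PS_Ca-only regions (red) and of the 1158 PS_Ia-only regions (blue) on each numbered chromosome, in percent. Chromosome 16 holds 14.9% of the PS_Ia-only regions, and chromosomes 5 and 8 hold 22.6% and 10.8% of the PS_Ca-only regions.

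PS_Ca-only regions were concentrated instead on chromosome 5, with 44 of 195 (22.6%), against 5.92% of all regions. Chromosome 8 held 21 (10.8%), against 4.81% of all regions. On chromosome 5, 35 of the 44 were in the segment from 14 to 16 Mb, which held 1 PS_Ia-only region. On chromosome 8, 12 of the 21 lay between 19 and 20 Mb, which also held 1. Smaller groups of 6 were at 67 to 68 Mb on chromosome 7 and at 146 to 147 Mb on chromosome 4. In all, 59 of the 195 (30.3%) fell into 5 windows of 1 Mb with at least 4 such regions. PS_Ia-only regions were grouped to a similar degree, with 284 (24.5%) in 59 windows of 1 Mb that held at least 4 of them. In the windows of PS_Ca-only regions on chromosomes 5, 8, 7 and 4 the share of peaks was highest in PS_Ca replicate 2 among the 8 libraries. On chromosome 8 it was 0.946% there, 0.242% in PS_Ca replicate 1 and 0.145% to 0.326% in the other 6.

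Ranked by the mean percentile of their peaks' p in the 2 lists that hold them, the first PS_Ca-only region was at chromosome 3, 109534906 to 109536159, with summits of 29 and 12 fragments in PS_Ca replicates 1 and 2. All 4 FS libraries held it too. The next were at chromosome 7, 67030561 to 67031025 (12 and 23 fragments, also in FS_Ca replicate 2), and chromosome 5, 14982165 to 14982488 (12 and 20 fragments, also in FS_Ca replicate 1). Another 2 were on chromosome 3, at 156895355 to 156896224 (15 and 14 fragments, in all 4 FS libraries) and 150885289 to 150886006 (15 and 13 fragments, in FS_Ca replicate 1). Of the first 10 by rank, 3 were held by all 4 FS libraries and each of the 10 by at least 1.

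The first PS_Ia-only region by rank was at chromosome 13, 83864186 to 83865135, with summits of 18 and 17 fragments in PS_Ia replicates 1 and 2. The second was at chromosome 8, 85386357 to 85387829 (14 and 19 fragments), and the third at chromosome 13, 51512737 to 51514798 (14 and 17 fragments). All 4 FS libraries held these 3, so that the PS_Ca lists were the ones without a peak. On chromosome 16 the first was at 19387999 to 19388524 (14 and 15 fragments), held by FS_Ia replicate 1 only. The next were at 4550863 to 4552062 and 13440061 to 13441095, with 11 and 17 fragments each, and all 4 FS libraries held both.

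The FS libraries held most one-orientation regions. Of all 54160 regions, 52.6% were held by at least 1 FS library, 2.03% were FS_Ca-only and 0.478% FS_Ia-only. Of the 195 PS_Ca-only regions, 151 (77.4%) were held by at least 1 FS library, and 15 (7.69%) by both FS_Ca and neither FS_Ia library, against 4 (2.05%) the other way. Of the 1158 PS_Ia-only regions, 758 (65.5%) were held by at least 1 FS library. Both FS_Ia and neither FS_Ca library held 16 of them (1.38%), and the opposite pattern, 40 (3.45%), was the more frequent. For both sets the share in either FS pattern was thus above that of all regions. On chromosome 16, 130 of the 172 PS_Ia-only regions (75.6%) were held by at least 1 FS library, against 63.7% of those elsewhere.

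In strength the difference between the PS and FS contrasts was tested directly. Of 6691 regions held by all 8 libraries, 0 (0%) passed for the interaction of orientation with switch length (limma, Benjamini-Hochberg; lowest adjusted p = 0.101), and 341 (5.1%) had an unadjusted p under 0.05. Across these regions the PS difference and the FS difference had a Pearson r of -0.04, given as a description. The contrasts share no library, but all libraries share the regions and the coarse steps of low summits.

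Wide regions were strong and widely held. Width is that of the merged region, so that a region of more lists is wider in part by construction. From the weakest to the strongest of the 5 strength classes the median width of regions held by all 4 rose from 1104 to 2616 bp. Regions held by all 4 made up 0.164% of those under 500 bp, 7.06% of those from 500 to under 1000 bp, 45.3% of those from 1000 to under 2000 bp and 84.1% of those of 2000 bp or more. One-orientation regions were narrower than those held by all 4. Of all regions, whatever the lists that held them, 50.8% were under 500 bp and 25.3% measured 500 to under 1000 bp. Of PS_Ca-only regions, 47.2% were under 500 bp, near the share of all regions, and 43.1% measured 500 to under 1000 bp. Of PS_Ia-only regions, 27% and 57.1% fell into these classes, and 5 reached 2000 bp against 0 of the PS_Ca-only regions. Their median widths were 526 and 626 bp, against 1722 bp for regions held by all 4.

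Among regions held by all 4, the difference was -0.14 from 500 to under 1000 bp, -0.05 from 1000 to under 2000 bp and 0.00 at 2000 bp or more. This order was that of the replicate 2 libraries, where the difference went from -0.45 to -0.13 and 0.04. Between the replicate 1 libraries it went from 0.13 to 0.06 and -0.02, the opposite direction. By strength the weakest class differed by -0.13 and the other 4 classes by -0.04, 0.01, -0.02 and -0.03. In the weakest class PS_Ca replicate 2 was at -0.29 and the other 3 libraries between -0.68 and -0.74, where its median summit of 8 fragments lay close to the lowest called one. At 352 regions (21.2%) of that class both PS_Ca values were above both PS_Ia values, against 16.6% of all regions.

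Close to Igh, the compared part of chromosome 12 reaches the 3' side of the locus, where enhancers of switching and CTCF sites lie. Which of these elements a region covers was not assigned. PS_Ca lacks the stretch from VH to the 3'BCEs on the non-coding allele, and the labels do not say whether PS_Ia does. The number of copies of this flank may therefore differ between the groups, which was not assessed. From 114.44 to 114.5 Mb there were 12 regions, 5 held by at least 2 of the PS libraries and 7 by PS_Ia replicate 2 alone. Both regions held by all 4 overlapped between the orientations. The stronger one, at 114457842 to 114461888, had summits of 26 and 11 fragments in PS_Ca and 18 and 34 in PS_Ia. Its strengths were 0.36 and 0.13 in PS_Ca and 0.25 and 0.81 in PS_Ia, a difference of 0.28 with a standard error of 0.33 (limma, adjusted p = 0.999). The other, at 114453742 to 114455198, had 15 and 7 fragments in PS_Ca and 17 and 10 in PS_Ia, a difference of 0.08 with a standard error of 0.40 (limma, adjusted p = 0.999). Neither direction was stable. With region bounds kept, the former was 0.0039 without PS_Ia replicate 2, and the latter -0.44 without PS_Ia replicate 1.

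The 3 other flank regions were missing from PS_Ca replicate 2. Those at 114443606 to 114444229 and 114455395 to 114456754 were held by the 3 other libraries, with 10 to 14 fragments and 14 to 18 fragments. The one at 114463600 to 114464059 was held by PS_Ca replicate 1 (11 fragments) and PS_Ia replicate 2 (12 fragments).

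The tallest regions differed by less than their standard errors. The first, at chromosome 2, 98506279 to 98507612, had summits of 483 and 375 fragments in PS_Ca and 526 and 486 in PS_Ia, and a difference of 0.01 with a standard error of 0.45. The 5 tallest had differences of -0.30 to 0.01 (limma, adjusted p = 0.999 for each). At chromosome 2, 98502272 to 98503261, the summits were 313 and 315 in PS_Ca and 316 and 287 in PS_Ia. Median summits over the regions held by all 4 were 20 and 10 in PS_Ca and 15 and 19 in PS_Ia. The summits of this tall region thus did not follow the depth of signal of the libraries. Whether the tallest regions mark Rad21 binding was not tested.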

How the data were processed

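The authors called peaks separately in every library and deposited the lists. Their tools were MACS2 2.2.7.1, deepTools 3.5.1, SAMtools 1.15.1 and Bowtie2 2.4.4 with the mm9 build, per the submitters' processing notes. Caller settings and any input control were not given in the sources used here. Values came from the deposited fold enrichment at the summit, a ratio to background that MACS2 estimates. The deposited −log10 q served for the stricter alternative, the −log10 p to rank peaks for lists of equal size and to break ties, and the summit offset for the summit alternative. The deposited score repeats the −log10 q and was not used. Summit heights were read from the steps of the folds and were whole within 0.01 in every list. Expected backgrounds were 0.587 to 0.862 fragments in the PS lists.

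Peaks were merged at 1 bp of overlap. Strengths of regions held by all 4 libraries were fitted with limma 3.58.1 (R 4.3.3, with a strength trend, without a replicate block), and p-values were adjusted over all regions. The counting error is the Poisson error of the summit heights and covers nothing else. Chromosome medians and presence were described without a test. Named regions were the 10 with the largest non-overlapping difference per direction (called ones first, of which there were 0), the 10 best-ranked one-orientation regions per direction with up to 5 of chromosome 16, the Igh 3' flank and the 5 tallest. The text gives the leading ones. The contrast, regions and lists were chosen with earlier results of these data known. Python 3.11.15, numpy 2.4.6, pandas 2.3.3 and scipy 1.17.1 were used, and the scripts were tested on simulated data. In lists simulated at the summit heights of the 8320 regions, limma called 16 of 100 planted 2-fold changes and 91 of 100 planted 4-fold changes. A count of 0 regions therefore does not mean that no region differed by 2-fold. Alternatives are in the closing section.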

Additional observations from a re-analysis of the deposited data

Results flagged for a closer look

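Chromosome X was outside the comparison. Among its 1490 merged PS regions, 180 were held by both PS_Ca and neither PS_Ia library and 13 by the opposite pattern, which is a signal in data the comparison left out. PS_Ca replicate 2 had 8.05% of its peaks on X, PS_Ca replicate 1 had 2.62%, and the highest of the 6 other libraries had 3.44%. The part of that library in the 180 was not tested.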

How the results depend on the processing

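The count of 0 regions that differed in strength stayed at 0 under most alternatives, with 4 to 537 regions at an unadjusted p under 0.05 where it did. It was 1 at a −log10 q of at least 5 and 1 with summits of at least 10 fragments in all 4 libraries, in both cases the chromosome 15 region at 28110841 to 28112650. Leaving out 1 library gave 0 to 13, the 13 without PS_Ia replicate 2, with regions merged again. With the region bounds of all 4 lists kept, chosen after seeing the data, it gave 0 to 1. With the replicate number as a block it was 4, namely chromosome 15, 28110841 to 28112650, chromosome 13, 74666045 to 74668326, and chromosome 16, 4314003 to 4317169 and 19145922 to 19148403. The labels do not say that the numbers pair libraries, and the deviations of same-numbered libraries had a correlation of 0.02. The interaction with switch length gave 2 regions with the replicate block and 0 to 5 without 1 library, the 5 without FS_Ia replicate 1. A fit that leaves 1 library in a group assumes that it varies like the others. The count of PS_Ca-only regions was 332 with regions built from summits ± 100 bp, 383 in lists of equal size, 375 with chromosome X kept in and 322 to 6302 without 1 library. That of PS_Ia-only regions was 463 at the stricter q, 417 in lists of equal size and 1201 to 24311 without 1 library. The chromosome 16 difference was above 0 under each alternative: 0.32 from summits, 0.33 with X kept in, 0.30 without regions of 2000 bp or more, and 0.25 to 0.42 without 1 library (0.26 to 0.42 with bounds kept). Centring on all peaks of a list gave 0.68, but moved the median of all regions to 0.27, which leaves 0.41 as before. The first 40 Mb of chromosome 15, added after seeing the data, stayed below 0, from -0.44 to -0.29 without 1 library, and -0.10 on the shifted scale. With summits of at least 10 fragments in all 4 libraries they were 0.36 and -0.42. Of 364 values of 22 named regions, 6 changed sign. Merging again without 1 library gave -0.038 to 0.87 at chromosome 2, 160709876, where the region splits without the middle peak of PS_Ia replicate 2. With bounds kept it was 0.83 to 1.05. At chromosome 12, 114453742 leaving out 1 library gave -0.40 to 0.56 on merging again (-0.036 without PS_Ca replicate 2) and -0.44 to 0.60 with bounds kept, and 114457842 gave -0.031 to 0.60 and -0.40 from summits. Otherwise, where a value moved the cause was not tested.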
